A study of Mus musculus with 3 samples.

Results

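The cytosolic ribosomal protein genes were analyzed by single-cell RNA-Seq in tumors of B16-F10, a melanoma cell line of the mouse. Genes were chosen by name (Rpl or Rps followed by a number, or Rplp0, Rplp1, Rplp2 and Rpsa) and by a minimum of 1000 UMIs over the 3 libraries, where a UMI is a tag that marks a single captured RNA molecule. The rule found 85 of 32285 genes, with 49 genes of the large ribosomal subunit, 32 of the small subunit and 4 that encode kinases, namely Rps6ka1, Rps6ka2, Rps6ka3 and Rps6ka6. The kinases share the name because they phosphorylate ribosomal protein S6, and they are not ribosomal proteins, so they are described apart and 81 genes are ribosomal proteins. A further 6 genes matched by name and fell under the minimum. Just inside it were Rps6ka6 with 1181 UMIs and Rps6ka2 with 2076 UMIs, and just outside it were Rps6ka5 with 973 UMIs and Rpl39l with 492 UMIs. All 85 genes are annotated as protein coding, and they lie on 19 chromosomes, with 6 of them on the X chromosome.

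Of the 3 libraries, 2 were labelled shMib2 (replicates 1 and 2), from tumors of cells with different shRNAs against Mib2, and 1 was labelled shCtrl, from tumors of cells with a control shRNA. Mib2 encodes an E3 ubiquitin ligase. The shRNAs were carried by the implanted B16-F10 cells, and the other cells of the tumors came from the host mice. The hosts were C57BL/6J mice aged 6 to 8 weeks, and each library held the pooled tumors of 3 mice, so that the spread between mice cannot be read. In melanoma cells Mib2 had 3.04 and 2.56 CPM (UMIs scaled to a total of 1e6 over the cells summed) in the libraries labelled shMib2, against 2.47 CPM in the library labelled shCtrl. These values rest on 493 and 420 UMIs, against 573 UMIs, so Mib2 RNA was not lower under the shMib2 label, and the RNA does not check the labels.

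The files held 9428 and 8388 barcodes in the libraries labelled shMib2, against 9558 in the library labelled shCtrl, and between 190904274 and 243926188 UMIs a library. Between 20 and 30 barcodes were shared by each pair of libraries. Cells were gated by marker genes that hold no ribosomal protein gene. The gates gave 6103 and 3761 melanoma cells in the libraries labelled shMib2, against 7976 in the library labelled shCtrl. There were 550 and 804 T cells, against 77, then 249 and 413 NK cells, against 30, and 72 and 119 B cells, against 51. Fibroblasts (346 and 308, against 17) and phagocytes (79 and 189, against 6) had under 20 cells labelled shCtrl, so no test was run on them. The median UMI count per cell was 24972 and 42811 in melanoma cells of the libraries labelled shMib2, against 27030 in the library labelled shCtrl, and 1517 and 2669 in T cells, against 1544.

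A ribosome joins a small subunit, which reads the mRNA, with a large subunit, which links the amino acids, and most of its proteins are encoded by 1 active gene each. Many mRNAs of ribosomal proteins open with a C followed by a run of pyrimidines, the 5′ terminal oligopyrimidine (TOP) motif, through which the kinase mTOR controls their translation. Resting and activated lymphocytes are known to differ in how much of this RNA they hold and how much of it they translate.

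The sequences around the annotated start sites of 8 members are shown because these genes carry most of the results below and because the start is where the TOP motif lies. They come from RefSeq (GRCm38.p6), which held promoters for 61 of the 81 ribosomal protein genes. Each runs 5′ to 3′ on the strand of the gene, from 20 bases before the annotated start through 20 bases from it, and capitals mark a run of at least 5 C or T that holds or touches the start.
Rps27, chr3:90213629-90213668, minus strand: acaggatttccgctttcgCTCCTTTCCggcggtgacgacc
Rps24, chr14:24490658-24490697, plus strand: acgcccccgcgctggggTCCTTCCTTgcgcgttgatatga
Rpl12, chr2:32961692-32961731, plus strand: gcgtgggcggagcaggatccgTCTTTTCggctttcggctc
Rplp2, chr7:141447631-141447670, plus strand: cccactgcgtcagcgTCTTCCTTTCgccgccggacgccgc
Rplp0, chr5:115559447-115559486, plus strand: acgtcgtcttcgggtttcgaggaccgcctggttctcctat
Rpsa, chr9:120127746-120127785, plus strand: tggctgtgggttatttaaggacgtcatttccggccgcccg
Rps27l, chr9:66946066-66946105, plus strand: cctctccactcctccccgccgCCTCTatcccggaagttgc
Rpl36al, chr12:69184048-69184087, minus strand: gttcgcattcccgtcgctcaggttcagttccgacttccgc

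A C at the annotated start followed by at least 4 C or T, read on the strand of the gene, was found in 13 of 61 ribosomal protein genes (21.3%), against 813 of 27025 genes with a promoter in the table (3.01%). A run of at least 5 C or T that holds or touches the start was found in 25 of 61 (41.0%), against 5824 of all genes (21.6%). Rps27 and Rplp2 had both. Rplp0, Rpsa and Rpl36al had neither at these starts, which says only that the letters are not in this window at the annotated base. Of the genes for mitochondrial ribosomal proteins, 0 of 69 had the C start. Of 14 genes with a promoter in a list of other TOP genes, 6 had the C start and 8 the run.

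The share of all UMIs that came from the 85 genes was higher in lymphocytes than in melanoma cells in every library. T cells held 28.8% and 30.8% in the libraries labelled shMib2, against 36.2% in the library labelled shCtrl. Melanoma cells held 20.8% and 21.9% in the libraries labelled shMib2, against 21.0% in the library labelled shCtrl, so every T cell value was above every melanoma value. B cells held 29.5% and 30.0%, against 29.7%, and NK cells 25.9% and 28.1%, against 30.9%. Fibroblasts were close to melanoma cells in the libraries labelled shMib2, with 19.8% and 20.4%, against 24.1% from 17 cells labelled shCtrl. Phagocytes had 16.7% and 19.6%, against 22.2% from 6 cells. B, T and NK cells overlapped one another, and so did fibroblasts and melanoma cells. The widths of the Wilson 95% intervals of these shares cover counting error only, and for T cells they ran 28.7% to 28.9% and 30.8% to 30.9%, against 35.9% to 36.4%.

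Within T cells, naive-like cells, gated by genes of resting T cells such as Ccr7, had the highest share in each library. Their share was 36.8% and 37.7% in the libraries labelled shMib2, against 42.5% in the library labelled shCtrl. CD8 effector T cells, gated by Cd8a or Cd8b1 and genes such as Gzmb, had 28.9% and 30.1%, against 34.9% from 12 cells. Cycling T cells had 25.8% and 27.5%, against 29.7% from 3 cells. Regulatory T cells had 22.5% (19 cells) and 25.3%, against 25.4% from 1 cell. Naive-like T cells did not overlap CD8 effector or cycling T cells within a label, while CD8 effector cells labelled shCtrl (34.9%) came near naive-like cells labelled shMib2 (36.8%).

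Melanoma cells were split by markers of the cell cycle. Cells with at least 5 of 8 cycling markers held 20.5% and 21.4% in the libraries labelled shMib2, against 20.7% in the library labelled shCtrl. Cells with 0 or 1 such marker held 21.9% and 23.9%, against 22.3%, and were higher than the cycling cells in each of the 3 libraries. They also had fewer UMIs, with a median of 19254 and 30233 per cell labelled shMib2, against 19605 labelled shCtrl. Cycling cells had 29096 and 48903, against 31144. The part of depth in the difference was not tested. Melanoma markers took 0.195% and 0.0985% of the UMIs of T cells in the libraries labelled shMib2, against 0.109% in the library labelled shCtrl, and 1.94% and 2.04% of those of melanoma cells, against 1.98%. All 8 melanoma markers had a UMI in T cells labelled shCtrl, and the part of this RNA in the shares was not tested.

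**Figure D1:**
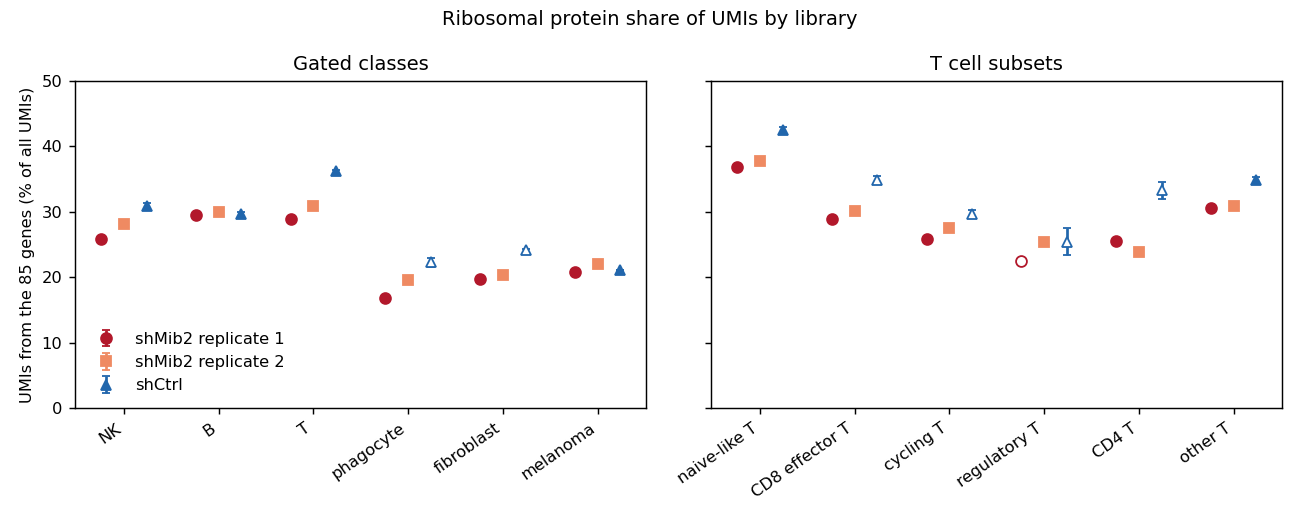
Share of all UMIs (%) that came from the 85 genes, by gated class (left) and T cell subset (right). Each point is 1 library, bars are Wilson 95% intervals of counting error, and open symbols mark sums of under 20 cells. T cells lie at 28.8%, 30.8% and 36.2%, above melanoma cells at 20.8%, 21.9% and 21.0%, and naive-like T cells are highest at 36.8%, 37.7% and 42.5%.

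T cells were compared with melanoma cells gene by gene, which asks whether the higher share was carried by all ribosomal protein genes or by some. Most members were higher in T cells, with Rps27, Rpl36a and Rps24 furthest up among ribosomal proteins, and 4 ribosomal protein genes, among them Rps27l, Rpl7l1 and Rpl31, were lower. Of 85 members tested, 70 were higher in T cells and 5 lower at an adjusted p under 0.05 (edgeR's quasi-likelihood test, Benjamini-Hochberg adjustment, library as a block). Over all genes tested, 27.7% were higher and 32.8% lower. With 3 libraries and the block, this fit and the other class fits on 3 libraries leave few residual degrees of freedom. Their SEs and p-values therefore rest largely on spread pooled across genes. The median log2 fold change was 0.75 over the members, beside -0.19 over all genes. With scaling by total UMIs in place of TMM the medians were 0.55 and -0.40, and 64 members were higher and 6 lower. Of the large subunit 41 of 49 genes were higher and 2 lower, and of the small subunit 28 of 32 were higher and 2 lower, with medians of 0.65 and 0.95 on the log2 scale. Of the 70 higher members, 69, 69 and 70 were higher in the 3 libraries taken singly. Without shMib2 replicate 2 the test called 52 members higher, and without either of the others 65 to 72.

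Rps27, a zinc-binding protein of the small subunit on chr3 (90212522 to 90213651, mm10, minus strand), had 2382 and 4325 CPM in T cells of the libraries labelled shMib2 and 4765 CPM in those labelled shCtrl. In melanoma cells it had 954 and 1594 CPM in the libraries labelled shMib2 and 1197 CPM in the library labelled shCtrl, so all T cell values were above all melanoma values. Its log2 fold change, T over melanoma, was 1.78 ± 0.12 (SE, 3 libraries; edgeR adjusted p = 5.69e-45). Within each class replicate 1 was the lowest library.

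Rps24, also of the small subunit, had 8096 and 8793 CPM in T cells labelled shMib2 and 10462 CPM in those labelled shCtrl, against 3713, 3759 and 3565 CPM in melanoma cells in the same order of libraries. The log2 fold change was 1.50 ± 0.11 (edgeR adjusted p = 4.48e-39). Rpl36a, a large-subunit protein, had 928, 1397 and 1486 CPM in T cells, against 406, 594 and 467 CPM in melanoma cells, again without overlap (1.55 ± 0.14 on the log2 scale; edgeR adjusted p = 6.37e-29).

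The stalk of the large subunit, which recruits elongation factors, is built by Rplp0, Rplp1 and Rplp2, and Rpl12 sits at its base. Rplp0 (chr5, 115559467 to 115563727, mm10) had 5967 and 5772 CPM in T cells labelled shMib2 and 7340 CPM in those labelled shCtrl, against 4125, 4020 and 4372 CPM in melanoma cells (log2 fold change 0.80 ± 0.11; edgeR adjusted p = 8.2e-12). Rplp1 and Rplp2 were higher by 0.54 ± 0.11 and 0.75 ± 0.12 on the log2 scale. Without shMib2 replicate 2 the adjusted p of Rplp1 was 0.0623. Rpl12 (chr2, 32961559 to 32965345, mm10) had 3035, 2884 and 4813 CPM in T cells, against 2447, 2204 and 2602 CPM in melanoma cells. Its T cell library labelled shCtrl stood well above the other T cell libraries, and the log2 fold change was 0.72 ± 0.12 (edgeR adjusted p = 6.08e-09). Rpsa (chr9, 120127689 to 120132369, mm10), a small-subunit protein also known as a laminin receptor, had 7096, 6844 and 8230 CPM in T cells, against 4264, 4060 and 4441 CPM in melanoma cells (0.99 ± 0.11; edgeR adjusted p = 7.97e-18).

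Among the lower members, Rps27l had 495 and 450 CPM in T cells labelled shMib2 and 294 CPM in those labelled shCtrl, against 1237, 1333 and 1176 CPM in melanoma cells (log2 fold change -1.37 ± 0.14; edgeR adjusted p = 2.81e-21). Rpl7l1, named for its likeness to Rpl7, had 46.1, 47.8 and 41.1 CPM in T cells, against 101, 97.0 and 104 CPM in melanoma cells (-0.87 ± 0.13; edgeR adjusted p = 3.46e-10). Rpl31, of the large subunit, had 735, 823 and 746 CPM in T cells, against 1169, 1374 and 1156 CPM in melanoma cells (-0.48 ± 0.13; edgeR adjusted p = 0.000752). The groups did not overlap for any of these 3 genes, although the call of Rpl31 was lost without shMib2 replicate 2 (edgeR adjusted p = 0.219).

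The kinases differed from one another. Rps6ka1 had 61.9, 50.0 and 27.4 CPM in T cells, against 11.7, 10.7 and 12.2 CPM in melanoma cells (log2 fold change 2.45 ± 0.16; edgeR adjusted p = 5.6e-55), with T cells labelled shCtrl lowest among T cells. Rps6ka2 had 3 UMIs in all T cells together, against 3.13, 3.37 and 3.15 CPM in melanoma cells, and its call as lower in T cells rests on these. Rps6ka3 had 44.7 and 44.2 CPM in T cells labelled shMib2 and 20.5 CPM (3 UMIs) in those labelled shCtrl, against 51.4, 48.0 and 47.6 CPM in melanoma cells, and was not called.

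**Figure D2:**
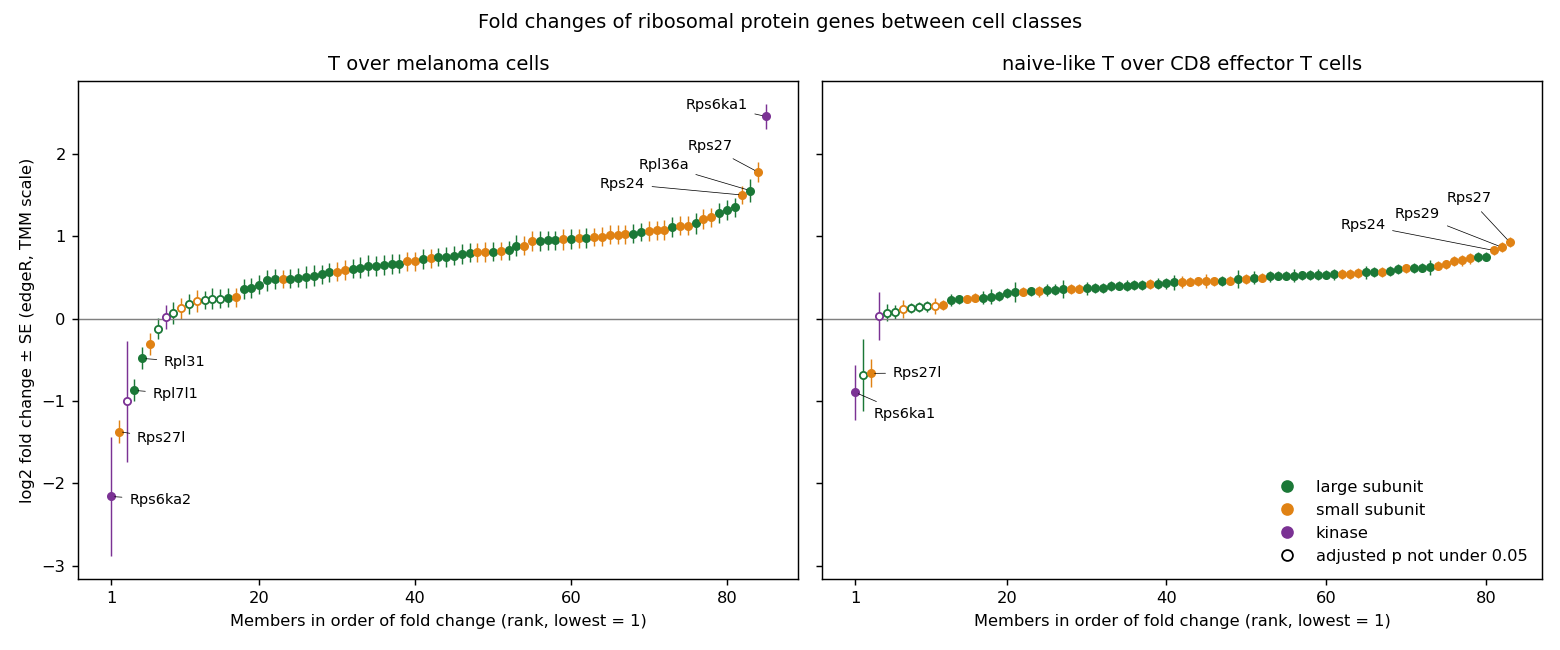
log2 fold change ± SE (edgeR, TMM scale) of each member tested, in rank order, for T over melanoma cells (left, 85 members) and naive-like T over CD8 effector T cells (right, 83 members). Filled points had an adjusted p under 0.05: 70 higher and 5 lower on the left, 72 higher and 2 lower on the right. Rps6ka2 rests on 3 UMIs in T cells.

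Some ribosomal proteins have a paralog that can take their place, and 3 such pairs differed in their balance between classes. Because reads from near-identical stretches can be given to either gene, these balances are uncertain in level. Rps27l (chr9, 66946086 to 66949516, mm10) took 4.60% and 2.96% of the UMIs of the pair Rps27l and Rps27 in naive-like T cells labelled shMib2, against 2.84% in those labelled shCtrl. In CD8 effector T cells it took 10.1% and 9.21%, against 4.90%, and in cycling T cells 40.8% and 27.1%, against 27.1% from 3 cells. In melanoma cells Rps27l took 56.4% and 45.5%, against 49.6%, above the NK, B and these T cells of every library.

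Rpl36al took 41.9% and 34.7% of the pair Rpl36al and Rpl36a in naive-like T cells labelled shMib2, against 28.1% in those labelled shCtrl. In melanoma cells it took 75.2% and 69.6%, against 71.9%. The paralog itself did not pass the test: Rpl36al had 982, 1003 and 1054 CPM in T cells, against 1228, 1361 and 1195 CPM in melanoma cells (log2 fold change -0.12 ± 0.13; edgeR adjusted p = 0.427). By total UMIs, without shCtrl, or with a melanoma cut of 0.5% it was called lower (adjusted p of 0.0271, 0.00409 and 0.0114). Rpl22l1 took 21.6% and 26.3% of the pair with Rpl22 in phagocytes labelled shMib2, against 29.7% from 6 cells labelled shCtrl, and 42.9% and 42.5% in melanoma cells, against 44.1%. Both genes of that pair were higher in T cells than in melanoma cells, Rpl22 by 0.89 ± 0.13 and Rpl22l1 by 0.50 ± 0.13 on the log2 scale (without shMib2 replicate 2 the adjusted p of Rpl22l1 was 0.110). Rpl7l1 took 1.71% and 1.88% of the pair with Rpl7 in T cells labelled shMib2, against 1.32% in those labelled shCtrl, and 4.73% and 4.80% in melanoma cells, against 4.83%.

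**Figure D3:**
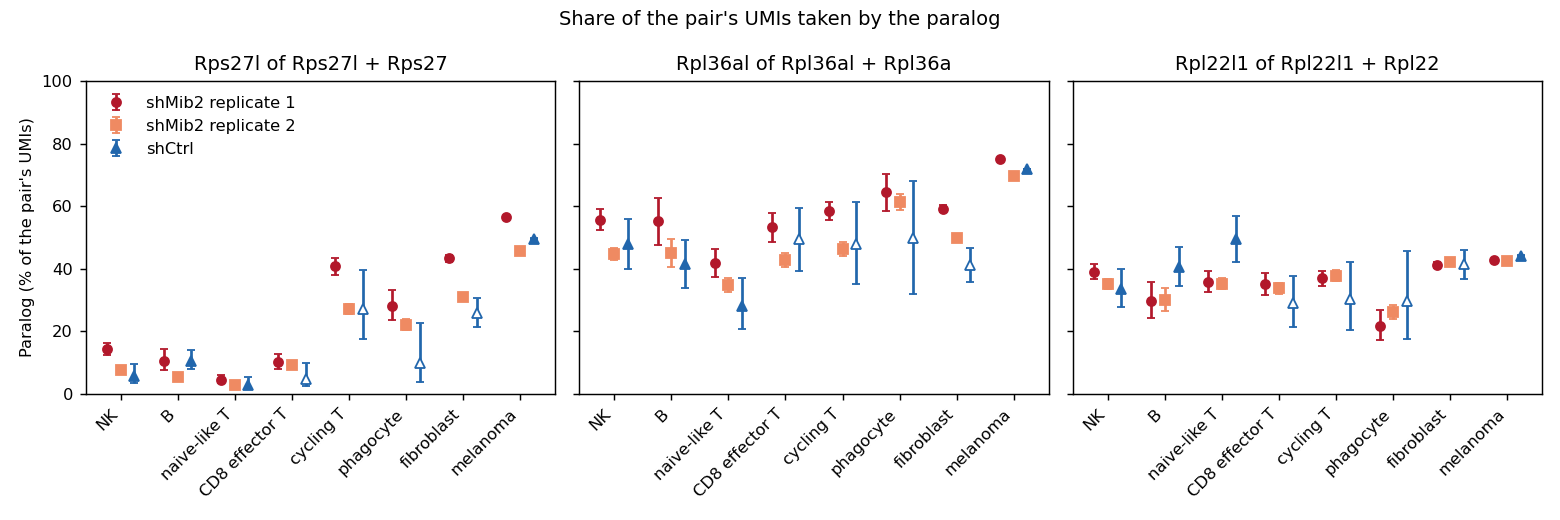
Share (%) of the summed UMIs of a pair that came from the paralog, for Rps27l, Rpl36al and Rpl22l1, by class. Each point is 1 library, bars are Wilson 95% intervals of counting error, and open symbols mark sums of under 20 cells. Rps27l lies at 4.60%, 2.96% and 2.84% in naive-like T cells and at 56.4%, 45.5% and 49.6% in melanoma cells.

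The balance among the members was read as each gene's share of their UMIs in 6 classes. The log2 range of a gene's share over the class means had a median of 0.45 over 81 genes, 34 genes had a range above 0.5, and 6 had a range above 1. Among the widest were Rps27l (2.41, with 0.110% in NK cells and 0.587% in melanoma cells), Rpl7l1 (1.73), Rps27 (1.56, with 1.73% in B cells and 0.585% in melanoma cells), and Rpl31 (1.26). The narrowest were Rpl23 (0.106), Rps4x (0.140), Rps10 (0.174), Rpl35 (0.185) and Rpl7 (0.190). These ranges are over means of libraries, and a gene can vary more within 1 library: Rpl35 ran between 0.316% and 0.395% in replicate 1 and between 0.671% and 0.815% in replicate 2. The ratio of large-subunit to small-subunit UMIs ran between 1.11 and 1.35 over 29 sums of a class in a library. It was 1.12 and 1.12 in naive-like T cells labelled shMib2, against 1.11 in those labelled shCtrl, and 1.30 and 1.35 in melanoma cells, against 1.33.

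**Figure D4:**
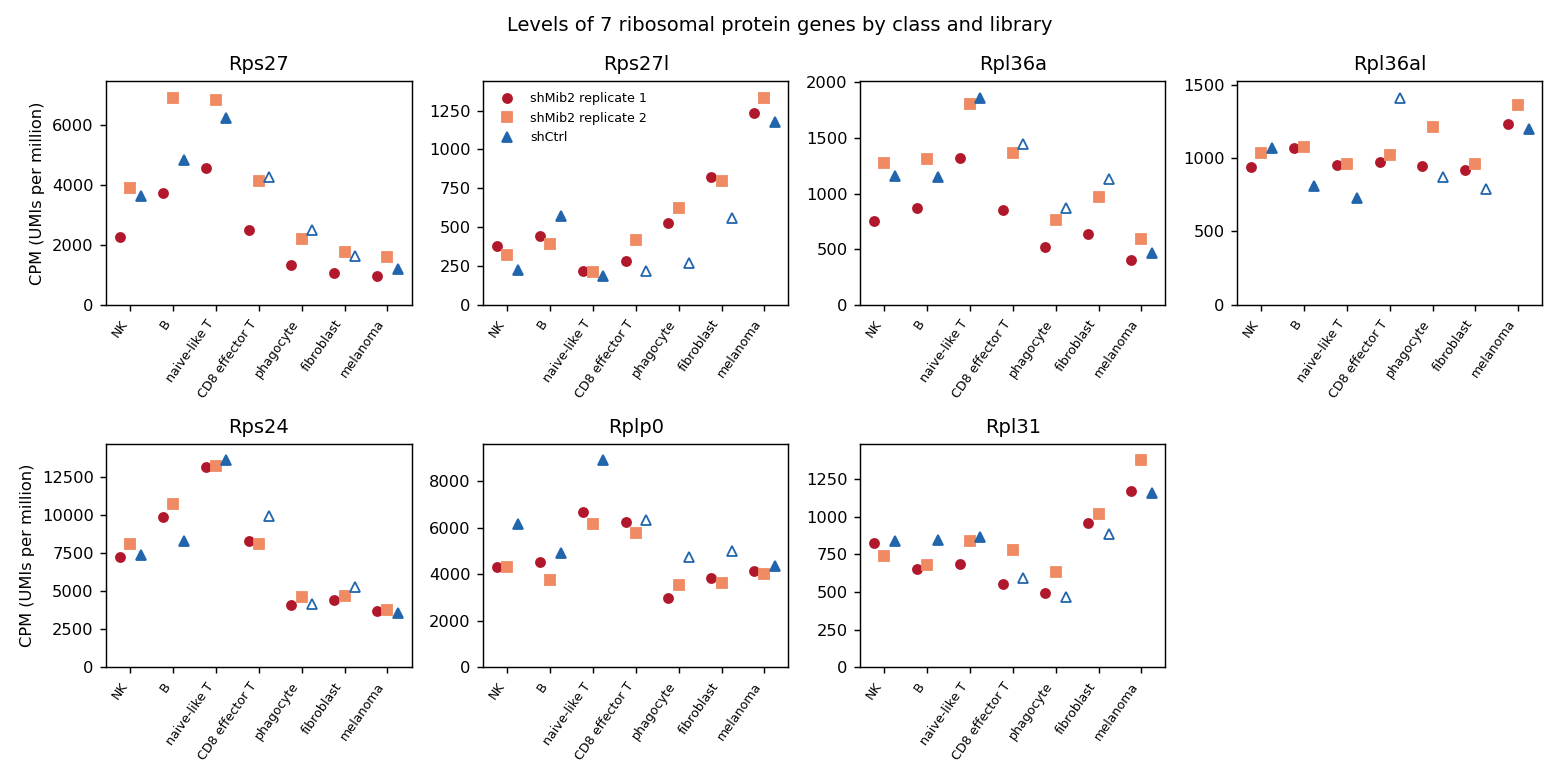
Level (CPM) of 7 members by class, with 1 point per library and open symbols for sums of under 20 cells. Rps27, Rps24 and Rpl36a are higher in lymphocytes than in melanoma cells, and Rps27l and Rpl31 are lower in naive-like T cells than in melanoma cells, where Rps27l has 219, 209 and 182 CPM in naive-like T cells and 1237, 1333 and 1176 CPM in melanoma cells.

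Naive-like T cells were compared with CD8 effector T cells, which asks how ribosomal protein RNA differs between these 2 gates. The naive-like gate set no condition on Cd4, Cd8a or Cd8b1. The gates can therefore differ in CD4 or CD8 identity as well as in state, and these were not told apart. The fit used the libraries labelled shMib2, since the library labelled shCtrl had 12 CD8 effector cells. With the library as a block, these 2 libraries leave 1 residual degree of freedom. The SEs and p-values of this fit therefore rest largely on spread pooled across genes. Nearly all ribosomal protein genes were higher in naive-like cells, led by Rps27, Rps29, Rps24, Rplp1 and Rpl12. Of 83 members tested, 72 were higher and 2 lower by the same test, beside 10.5% higher and 9.58% lower of all genes tested. The median log2 fold change was 0.45 over the members and 0.01 over all genes, and by total UMIs 0.30 and -0.14, with 62 members higher. The call was made for 43 of 49 large-subunit genes and 29 of 32 small-subunit genes. In the library labelled shCtrl, which the fit did not use, 63 of the 72 were higher in naive-like cells (29 cells, against 12), as were 72 and 71 in the others.

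Rps27 had 4544 and 6837 CPM in naive-like cells, against 2493 and 4107 CPM in CD8 effector cells of the libraries labelled shMib2, and 6226 against 4264 CPM in the library labelled shCtrl. All naive-like values were above all CD8 effector values, by the least between naive-like cells of replicate 1 and CD8 effector cells labelled shCtrl (log2 fold change 0.93 ± 0.06; edgeR adjusted p = 3.36e-48). Rps29, another zinc-binding protein of the small subunit, had 5959 and 8151 CPM, against 3397 and 5136 CPM (0.87 ± 0.06; edgeR adjusted p = 1.39e-47). Rps24 had 13178 and 13194 CPM, against 8288 and 8109 CPM, without overlap (0.83 ± 0.05; edgeR adjusted p = 1.16e-57). Of the stalk and its base, Rplp1 was higher by 0.75 ± 0.05, Rpl12 by 0.75 ± 0.06, Rplp2 by 0.53 ± 0.07 and Rplp0 by 0.23 ± 0.06 on the log2 scale. Rpsa, of the small subunit, was higher by 0.25 ± 0.05. Rplp0 and Rpsa lost the call with DESeq2 (adjusted p of 0.138 and 0.0770), by total UMIs (0.256 and 0.136) and without the library block (0.0844 and 0.0523).

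The 2 lower members were Rps27l and the kinase Rps6ka1. Rps27l had 219 and 209 CPM in naive-like cells, against 281 and 417 CPM in CD8 effector cells (log2 fold change -0.66 ± 0.17; edgeR adjusted p = 0.000973, and 0.550 with DESeq2). Rps6ka1 had 54.8 and 21.0 CPM, against 61.1 and 59.5 CPM (-0.89 ± 0.33; edgeR adjusted p = 0.0390, and 0.939 with DESeq2). These Rps6ka1 values rest on 11 and 14 UMIs, against 15 and 46 UMIs, and in replicate 1 the classes were close. The median UMI count was 1485 and 2452 per naive-like cell, against 2010 and 3224 per CD8 effector cell, and melanoma markers took 0.115% and 0.0720% of UMIs, against 0.0660% and 0.0579%. The part of these in the differences was not tested.

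NK cells were then set against T cells. Of 83 members, 21 were lower in NK cells and 1 was higher, Rpl10 (edgeR, library as a block; 7.36% of all genes tested were lower and 5.96% higher). Rps19 had 3443 and 3513 CPM in NK cells labelled shMib2 and 4153 CPM in those labelled shCtrl, against 4578, 4800 and 5847 CPM in T cells (log2 fold change -0.55 ± 0.11; edgeR adjusted p = 0.000101). Rpsa and Rplp0 were lower by 0.50 ± 0.11 and 0.49 ± 0.11, and Rpl12 by 0.45 ± 0.12 on the log2 scale. Rpl10, a large-subunit protein that joins late in assembly, had 1653, 2159 and 2863 CPM in NK cells, against 1373, 1555 and 1917 CPM in T cells (0.33 ± 0.12; edgeR adjusted p = 0.0435). Without shMib2 replicate 1 edgeR called 0 members (10 at an unadjusted p under 0.05), without replicate 2 it called 2 lower, and without the library labelled shCtrl 26 lower. Without the library block it called 0 (10 unadjusted), and DESeq2 called 4 lower.

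In B cells against T cells, 1 of 80 members was higher and 2 were lower, beside 11.0% and 12.4% of all genes tested. Rps27 had 3720, 6901 and 4812 CPM in B cells, against 2382, 4325 and 4765 CPM in T cells, so that in the library labelled shCtrl the classes were nearly equal (log2 fold change 0.50 ± 0.18; edgeR adjusted p = 0.0415). Rplp0 was lower by 0.48 ± 0.17 and Rpsa by 0.43 ± 0.16 on the log2 scale (edgeR adjusted p of 0.0353 and 0.0490). Without shMib2 replicate 1 or replicate 2 edgeR called 0 members (0 at an unadjusted p under 0.05), DESeq2 called 0, and without the library labelled shCtrl 2 were higher and 5 lower.

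The libraries labelled shMib2 were compared with the library labelled shCtrl within each class, which addresses the effect of the shRNAs in tumor cells on tumor and host cells. With 1 library labelled shCtrl the fit has 1 residual degree of freedom and assumes that this library varies like the others, whose spread includes the difference between shRNAs. No member was called in melanoma, T, NK or B cells by edgeR at an adjusted p of 0.05. In melanoma cells 0.733% of all genes tested were called higher and 0.0% lower, in T and NK cells 0.0% in each direction, and in B cells 0.705% higher and 1.15% lower. At an unadjusted p under 0.05 there were 9 of 85 members in melanoma cells, beside 2478 of 15680 genes, and 47 of 83 in T cells, beside 677 of 9099 genes. In NK cells there were 3 of 83, beside 443 of 6617 genes, and in B cells 0 of 81, beside 161 of 1560 genes. DESeq2 called 1 member lower in melanoma cells and none in the other classes.

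In T cells 76 of 83 members had a fold change under 0, with a median of -0.39 beside 0.12 over all genes, and the smallest adjusted p was 0.221. Rpl12 reached it, with 3035 and 2884 CPM in T cells labelled shMib2, against 4813 CPM in those labelled shCtrl (log2 fold change -0.81 ± 0.13). Its adjusted p was 0.000108 by total UMIs, 0.000764 with a strict cell filter, 0.000605 with a melanoma cut of 0.5% and 1.4e-05 with doublets left out. Under these settings 7, 6, 21 and 27 members were called lower, against 0 with the settings used here. Over all genes, the lower calls under these settings were 25 of 9099, 25 of 9384, 33 of 8573 and 51 of 8582. Rplp0 and Rpsa had -0.43 ± 0.12 and -0.35 ± 0.11 (adjusted p of 0.596 for both).

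The share of UMIs from the 85 genes in T cells, as the mean under the shMib2 label over the shCtrl value, was 0.824 ± 0.0396 (SD of 2 single ratios). Naive-like cells made up 22.2% and 31.6% of T cells labelled shMib2, against 37.7% of those labelled shCtrl, and these are the T cells with the highest share. Cycling T cells, which have a lower share and more UMIs per cell, made up 11.6% and 8.83%, against 3.90% (3 cells). They held 581547 of 1453494 and 903770 of 3077185 T cell UMIs, against 22913 of 146056. Without naive-like cells the share was 27.5% and 28.9%, against 33.5%, and within naive-like cells alone the ratio was 0.876. The part of the mix of T cells in the ratio of all T cells was not tested. In fibroblasts, phagocytes and CD8 effector cells the library labelled shCtrl was also highest, each from under 20 cells. With a melanoma cut of 2% the T cell ratio was 0.992. In NK cells the ratio was 0.874 ± 0.0514, in B cells 1.00 ± 0.0124 and in melanoma cells 1.02 ± 0.0384.

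**Figure D5:**
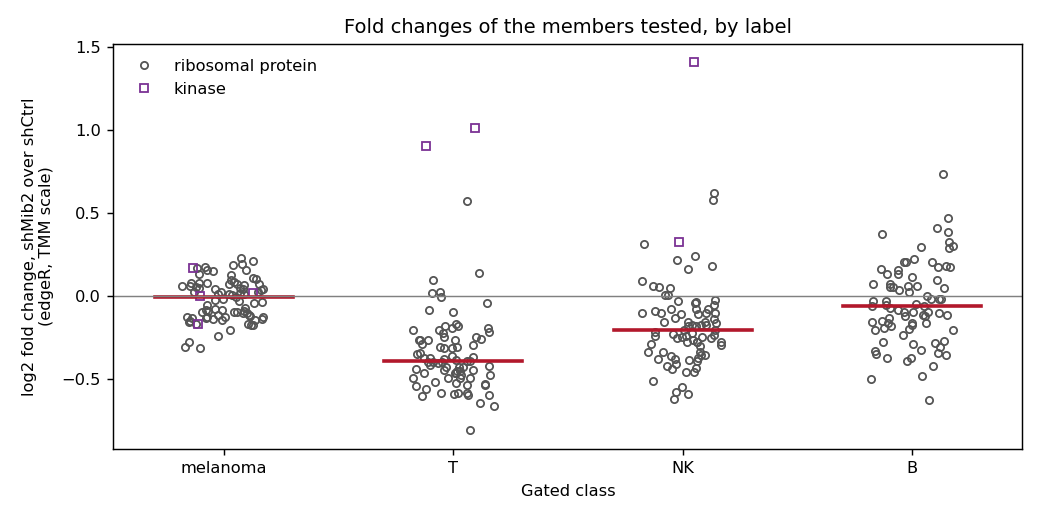
log2 fold change (edgeR, TMM scale) of each member tested, label shMib2 over label shCtrl, in 4 classes, with kinases as squares and red lines at the medians. The medians are -0.01 in melanoma cells, -0.39 in T cells, -0.20 in NK cells and -0.06 in B cells, and no member had an adjusted p under 0.05.

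Genes that work with ribosomal proteins were described from fixed lists. Over all genes tested in T against melanoma cells, 27.7% were higher and 32.8% lower. Of 3 partner genes 3 were higher in T cells than in melanoma cells, among them Fau, which encodes a ribosomal protein fused to ubiquitin-like sequence, and Rack1, a scaffold on the small subunit. They were higher by 1.49 ± 0.12 and 0.61 ± 0.12 on the log2 scale (edgeR adjusted p of 3.72e-36 and 3.6e-06). Of 21 genes listed as other TOP genes, which overlap that list, 16 were higher and 1 lower, with Tpt1 at 1.27 ± 0.11 and the nucleolar chaperone gene Npm1 at -0.34 ± 0.12. Of 7 elongation factor genes 4 were higher, Eef1a1 by 0.26 ± 0.11. Of 30 genes of ribosome assembly 4 were higher and 15 lower. Nop2, an rRNA methyltransferase gene, was at -1.18 ± 0.19, and Rrs1 and Pes1, which act in assembly of the large subunit, at -1.04 ± 0.16 and -0.98 ± 0.17, whereas Fbl, which encodes the methyltransferase fibrillarin, was at 0.53 ± 0.11. Of 78 mitochondrial ribosomal protein genes 1 was higher and 54 lower (median -0.59). Of 11 genes of the mTOR pathway 3 were higher, 3 were lower and 5 were not called, near the shares over all genes. The higher genes were Rptor (0.76 ± 0.18), Rps6kb2 (1.00 ± 0.23) and Eif4ebp2 (0.32 ± 0.13). In the library labelled shCtrl these 3 were not higher by CPM. They had 13.7, 6.85 and 54.8 CPM in its T cells, against 15.6, 7.67 and 58.6 CPM in its melanoma cells. Its T cell values come from 77 cells with 146056 UMIs over all genes, so each rests on few UMIs. Whether this library differs from the others was not tested. The lower genes were Rheb (-0.43 ± 0.11), Tsc2 (-0.58 ± 0.22) and Eif4ebp1 (-2.19 ± 0.18). Eif4ebp1 and Eif4ebp2 encode repressors of translation that mTOR inhibits.

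In naive-like against CD8 effector T cells, 3 of 3 partners, 4 of 7 elongation factors and 10 of 21 TOP genes were higher, and 2 TOP genes were lower, the last near the 9.58% of all genes. Tpt1 was at 0.71 ± 0.05 and Snhg8, a host gene of small nucleolar RNA, at 0.90 ± 0.19, while the histone chaperone gene Nap1l1 was at -1.02 ± 0.19 on the log2 scale. Of 19 assembly genes tested 1 was higher (Gnl3, 0.79 ± 0.25) and 2 lower (Nhp2 and Nop58), near the 10.5% and 9.58% of all genes, and of 68 mitochondrial ribosomal protein genes 1 was higher and 10 lower. Between labels 0 genes of these lists were called in melanoma, T and NK cells, and 1 mitochondrial gene was lower in B cells.

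Outside the members, the genes whose log2 CPM followed the summed level of the 85 genes most closely were found over 24 sums of a class in a library. Eif3f, a subunit of a translation initiation factor, was first (Pearson r 0.908), followed by Phf3 (0.896), Mettl23 (0.872), Rsbn1l (0.869) and Paip2 (0.864), of 2703 genes compared. Of the 10 closest genes 1 was in the TOP list, and 5 of its 21 genes were among the first 50. The sums share libraries and depth. They include erythroid cells, gated by at least 10% of UMIs from erythroid genes, which lower the CPM of members and other genes together. They also include the gate for endothelial markers, whose cells also carried melanoma markers. These values are therefore a description.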

How the data were processed

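Single-cell transcripts of B16-F10 tumors were counted in 2 libraries labelled shMib2 and 1 labelled shCtrl. Per the labels, the authors aligned reads to mm10 with Cell Ranger 4.0.0, and they deposited raw UMI counts per gene and barcode, without normalization. Coordinates are those of GENCODE vM21. The kit reads polyadenylated RNA, and cells had been called before deposition.

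A barcode was kept if it had 200 genes or more and no more than 20% of UMIs from mitochondrial genes. Cells were gated by marker genes: melanoma cells had at least 4 of 8 markers and at least 1% of UMIs from them, and other classes had under 1% and at least 2 markers of their own. Cells of mixed gates were left out, and doublets stayed in except in 1 alternative (scrublet, 0.8% per 1000 barcodes). UMIs were summed per library and class, for classes with at least 20 cells.

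Sums were scaled by TMM, filtered by filterByExpr and tested with edgeR's quasi-likelihood test over all genes, at an adjusted p of 0.05. Class comparisons had the library as a block, because both classes come from the same library. Each library pools several mice, so no p-value measures the spread between mice. Between labels, p-values rest on the spread between libraries of a label. In class comparisons they rest on how the class difference varied between libraries. Both kinds also draw on spread pooled across genes. No test was run on shares summed over the members. Alternatives covered DESeq2, no TMM, filters on low counts, cell filters, melanoma cuts of 0.5% and 2%, doublets, denominators and left-out libraries. The fit was also run on simulated data, for melanoma and T cells between labels and for T against melanoma cells. The simulation gave every gene the same spread and no shift between libraries, so it does not check the spread of these data.

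Named genes were Rpl12, Rplp0, Rpsa, the stalk genes, paralogs, kinases, and up to 5 members a direction with the largest fold change among those called, with at least 20 CPM and all libraries on 1 side. Some genes that this rule or a list names are not reported here. The members and lists were chosen with earlier results of these data known. Tools were Python 3.11.15 (numpy 2.4.6, scipy 1.17.1, pandas 2.3.3, scanpy 1.11.5) and R 4.3.3 (edgeR 4.0.16, limma 3.58.1, DESeq2 1.42.0).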

Additional observations from a re-analysis of the deposited data

How the results depend on the processing

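No paired analysis was possible for the libraries labelled shMib2 against the library labelled shCtrl, because there is 1 of the last. The share ratio of T cells (0.824) was 0.992 with a melanoma cut of 2%, where T cells also carried more melanoma markers, and 0.876 in naive-like cells alone, and that of NK cells (0.874) was 0.942 with the 2% cut. In B cells (1.00) the ratio was 1.02 without a cell filter, 1.07 with a strict filter, 1.07 with the 2% cut, and under 1 as a median over cells (0.925), with the 0.5% cut (0.885) and with doublets left out (0.983). Between labels, members called lower in T cells (0) became 7 without TMM, 6 with the strict filter, 21 with the 0.5% cut, 27 with doublets left out and 1 in naive-like cells alone, and 1 in melanoma cells with DESeq2. In T against melanoma cells the lower members (5) were 2 to 6 and the higher (70) 52 to 72 with a library left out. In NK against T cells (1 higher, 21 lower) DESeq2 gave 0 and 4, a minimum of 50 UMIs 0 and 8, no filter on low counts 0 higher, doublets left out 13 lower and no replicate block 0 and 0. With a library left out these were 0 to 1 higher and 0 to 26 lower. In B against T cells (1 higher, 2 lower) DESeq2 and no replicate block gave 0 and 0, no filter 0 and 6, 50 UMIs 0 higher, the strict filter 0 and 1, the 0.5% cut 7 and 4 and doublets left out 2 higher. A left-out library gave 0 to 2 higher and 0 to 5 lower. In naive-like against CD8 effector T cells, lower members (2) were 0 with DESeq2, 1 without a filter on low counts and 1 without the replicate block. Rpl12 in B against T cells turned to 0.0235 with the 0.5% cut, and Rpl36al in naive-like against CD8 effector cells to -0.0709 without TMM, neither called. The causes were not tested. The strict filter could not be fitted for B cells between labels, and naive-like against CD8 effector cells keep 1 library when 1 is left out. Depth limits T, NK and B cells labelled shCtrl, with 77, 30 and 51 cells.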

Other observations

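The libraries labelled shMib2 differed from each other in which ribosomal protein genes they counted. As a share of the UMIs of the 81 ribosomal proteins, 17 genes were lower in replicate 1 than in replicate 2 in each of 6 classes, 35 were higher in each and 29 were mixed. The 9 genes lower by a mean log2 difference beyond 0.5 were Rpl35 (-1.08), Rps27 (-0.69), Rps21 (-0.62), Rpl37a (-0.60), Rps28 (-0.58), Rpl38 (-0.58), Rpl39 (-0.53), Rpl37 (-0.53) and Rpl36a (-0.51), and 0 were higher by that much. Rpl35, of the large subunit, took 0.332% of these UMIs in melanoma cells of replicate 1 and 0.784% in those of replicate 2, against 0.693% in the library labelled shCtrl. The median annotated transcript length of the 9 genes was 483 bases (345 to 946), and that of the other 72 was 779 bases (383 to 5130). The 9 genes were chosen after their values were seen, so this is a description with no test. Class comparisons with the library as a block compare within libraries.

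Rpl39l, a paralog of Rpl39 that fell under the minimum of UMIs, was counted mostly in fibroblasts. It had 41.3 and 38.0 CPM in fibroblasts labelled shMib2 (175 and 200 UMIs) and 31.0 CPM in those labelled shCtrl (5 UMIs). In melanoma cells it had 0.0185, 0.0366 and 0.0043 CPM, from 3, 6 and 1 UMIs. The gene was singled out after its values were seen.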
